A study of Mus musculus with 384 samples.

Results

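The mammalian cell cycle genes described here are 37 genes that mark or control proliferation. They comprise 20 genes of mitosis and its checkpoints, 10 genes of DNA replication and nucleotide supply, 2 E-type cyclins, 2 D-type cyclins and 3 inhibitors of the Cip/Kip family. They were taken as a fixed list of names, which was chosen with earlier results of these data known. All 37 were found among the 23422 genes of the count table and among the 22276 genes of the table of filtered cells. The data came from single cells of adult mouse lung. Full-length cDNA was made from 95 single cells and 1 pool for each of 4 mice, and was sequenced to ask how mesenchymal cells marked by the R-spondin receptor genes Lgr5 and Lgr6 differ. A pair of mice were Lgr5-CreERT2;R26-Tom, in which tamoxifen-induced Cre switches on the Tom reporter for good, so that a Tom+ cell may be a descendant of a cell that once expressed Lgr5. The other pair were Lgr6-EGFP-CreERT2, in which GFP reports the Lgr6 allele at the time of the sort. The methods of the study give an age of 7 to 10 weeks for most of its experiments, without naming these mice. Both groups were sorted from dissociated lung after depletion of cells positive for CD31, CD45, CD11b or Ter119. This depletion removes endothelial, immune and red blood cells. Cells are called Lgr5+ or Lgr6+ here by the mouse line and the sort, not by their transcripts. The mouse was the replicate, with 2 mice per line, and values given in fours are in the order Lgr5 mouse 1, Lgr5 mouse 2, Lgr6 mouse 1 and Lgr6 mouse 2.

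A proliferating cell runs through G1, S, G2 and M phases. D-type cyclins carry growth signals into G1, E-type cyclins start replication, and the Cip/Kip proteins p21, p27 and p57 hold the cyclin-dependent kinases back. Replication genes such as Pcna and the Mcm helicase subunits are induced as cells enter S phase, and the mitotic genes, including Mki67 and Top2a, peak in G2 and M. The adult lung is known as a tissue of slow turnover, where most mesenchymal cells rest in G0.

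The authors kept 29, 28, 50 and 75 of the 95 single cells from the 4 mice, and these are called kept cells. A kept cell had 9748 to 4538878 reads, with medians of 263129, 272729, 332588 and 1537593, and 2003 to 6516 genes. The pan-mesenchymal markers Col1a1, Col1a2, Col3a1, Vim and Pdgfrb summed to median levels of 1817, 2109, 3112 and 2929 TPM in kept cells, a unit corrected for transcript length and scaled to the total of the cell. The 8 smooth muscle markers summed to medians of 574, 659, 6296 and 6684 TPM. A further 59, 54, 4 and 5 wells of the 4 mice reached the authors' floor of 2000 genes but were removed by their other criteria, and 76 wells lay under that floor. Reads were not collapsed to molecules, so every interval below covers counting error only. A gene is called detected in a cell when its count is above 0, that is, at 1 read or more.

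All 37 genes were detected in at least 2 kept cells, but few of them in most cells. Of the mitotic genes, 5 were common in every mouse, namely Birc5, Kif11, Tpx2, Cenpf and Ube2c, and the other 15 were rare in the Lgr6+ cells, a split made after the values were seen. Birc5, which encodes the chromosomal passenger protein survivin, was detected in 75.9%, 82.1%, 70% and 89.3% of kept cells. Ube2c, a ubiquitin-conjugating enzyme of the anaphase-promoting complex, was detected in 51.7%, 57.1%, 36% and 74.7%. For both genes the highest and the lowest share were those of the 2 Lgr6 mice, so that the lines overlapped. Cenpf, a kinetochore protein, was detected in 65.5%, 50%, 44% and 64%, and Tpx2, a spindle assembly factor, in 58.6%, 71.4%, 42% and 52%. Kif11, the kinesin that separates the spindle poles, had shares of 37.9%, 57.1%, 26% and 57.3%. These shares rested on few reads. The median over the cells with the gene was 7 reads for Birc5, 6 for Ube2c and 3 for each of Cenpf, Tpx2 and Kif11.

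**Figure D1:**
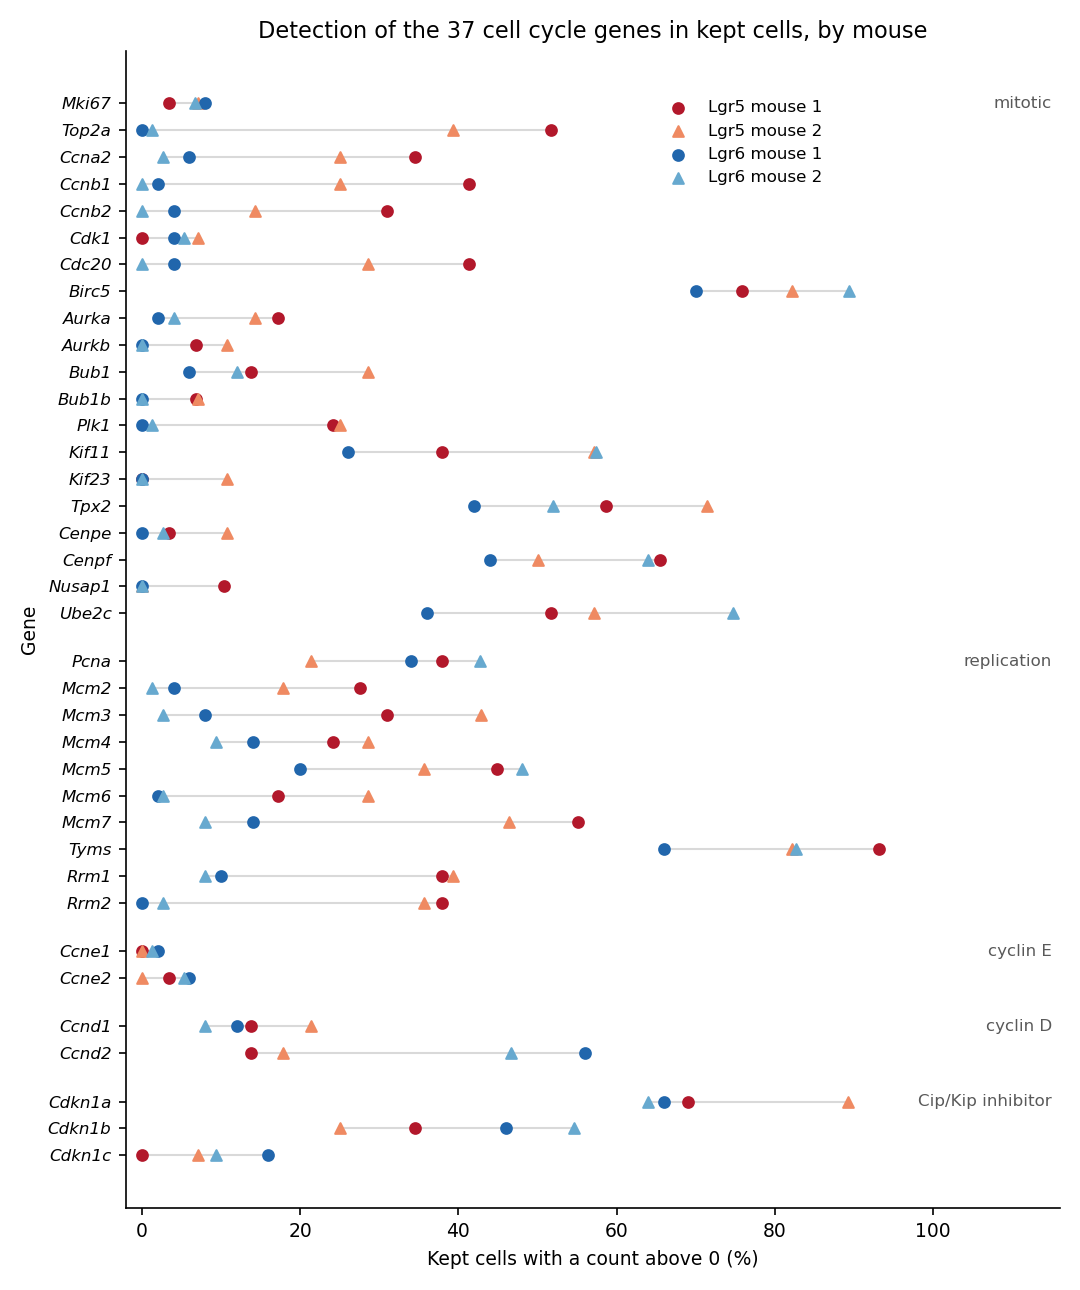
Percent of kept cells with a count above 0 (horizontal axis) for each of the 37 genes (vertical axis, grouped by role), with 1 point per mouse over 29, 28, 50 and 75 cells and a grey line from the lowest to the highest mouse. Top2a, Ccnb1, Cdc20 and Rrm2 lie at 25% to 51.7% in both Lgr5 mice and at 0 to 4% in both Lgr6 mice, while Birc5 and Tyms are at 66% or more in all 4 mice and Ccnd2 is at 46.7% and 56% in the Lgr6 mice against 13.8% and 17.9%.

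Most of the 15 rarer mitotic genes were found mainly in Lgr5+ cells. Top2a, the type II topoisomerase that untangles replicated DNA, was detected in 15 of 29, 11 of 28, 0 of 50 and 1 of 75 kept cells. A count of 0 in 50 cells allows a share of up to 6%. Its summed counts were 13.5, 7.88, 0 and 0.016 CPM (counts scaled to the total of the mouse's kept cells), and both Lgr5 mice were above both Lgr6 mice. Ccnb1, the cyclin that activates Cdk1 at mitotic entry, was detected in 41.4%, 25%, 2% and 0%, at 9.42, 3.94, 0.0693 and 0 CPM. Cdc20, an activator of the anaphase-promoting complex, was detected in 41.4%, 28.6%, 4% and 0%. Plk1, a kinase of spindle and centrosome maturation, was detected in 24.1%, 25%, 0% and 1.33%, at 2.84, 2.58, 0 and 0.0401 CPM. None of these 4 genes had a share in an Lgr6 mouse that reached the lower Lgr5 mouse. These shares, too, rested on few reads. Over the Lgr5+ cells with the gene, the median was 2.5 reads for Top2a, 4 for Ccnb1, 4.5 for Cdc20 and 2 for Plk1. Fewer than 10 reads were found in 76.9%, 68.4%, 95% and 85.7% of those cells, in the same order of genes. Pooled over the mice of a line, CPM was 788.5 times higher in Lgr5+ cells for Top2a (95% counting interval 215.9 to 6549, 237 against 2 reads), 482.4 times for Ccnb1 (131.2 to 4021, 93 and 52 against 2 and 0 reads) and 82.5 times for Plk1 (33.5 to 263, 62 against 5 reads). With Lgr5 mouse 1 or 2 alone, a comparison chosen after seeing the data, the ratio was 1034 or 604.9 for Top2a, 723 or 302.4 for Ccnb1 and 87.1 or 79.1 for Plk1.

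Ccna2, the cyclin of S and G2 phase, was detected in 34.5%, 25%, 6% and 2.67% of kept cells, and Ccnb2, the second B-type cyclin, in 31%, 14.3%, 4% and 0%. The 473 Ccna2 reads of Lgr6 mouse 2 came from 2 cells, while Lgr5 mouse 1 had 79 reads in 10 cells. Aurka, a centrosomal kinase, was detected in 17.2%, 14.3%, 2% and 4%. Bub1, a kinase of the spindle checkpoint, was detected in 13.8%, 28.6%, 6% and 12%. Its checkpoint partner Bub1b was at 6.90%, 7.14%, 0% and 0%, and the passenger complex kinase Aurkb at 6.90%, 10.7%, 0% and 0%. By the lower limit of the counting interval, Aurkb and Bub1b, with 12 reads each in Lgr5+ cells, were at least 18.49-fold higher there. Kif23, a kinesin of cytokinesis, was read only in 3 kept cells of Lgr5 mouse 2 (at least 14.9-fold) and Nusap1, a spindle-associated protein, only in 3 of Lgr5 mouse 1 (at least 63.5-fold). For these last 2 genes 1 Lgr5 mouse was at 0 with both Lgr6 mice, so the lines overlapped.

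Mki67, the gene of the proliferation marker Ki-67 at chr7:135689784-135716361, did not follow Top2a. It was detected in 1, 2, 4 and 5 kept cells, or 3.45%, 7.14%, 8% and 6.67%, and the shares of the lines overlapped. Its summed level was 2.94, 1.82, 12.4 and 15.2 CPM, but 94.9% of the 1897 reads in Lgr6 mouse 2 came from 1 cell. Cdk1, the kinase that drives mitosis, was detected in 0, 2, 2 and 4 kept cells. Cenpe, a kinetochore motor, was detected in 1, 3, 0 and 2 kept cells, with 2, 3, 0 and 618 reads. In sums over cells, then, a single Lgr6+ cell could outweigh all Lgr5+ cells of a mouse. Single cells carried sums of the Lgr5 mice as well, with 94.6% of the 37 Nusap1 reads and 62.3% of the 316 Tpx2 reads of Lgr5 mouse 1.

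Among the replication genes, Tyms and Pcna were common in both lines. Tyms, the thymidylate synthase, was detected in 93.1%, 82.1%, 66% and 82.7% of kept cells, with a mean log2(TPM + 1) of 4.14, 2.81, 2.27 and 1.89, and the shares overlapped. Pcna, the sliding clamp of DNA polymerase, was detected in 37.9%, 21.4%, 34% and 42.7%, with a mean log2(TPM + 1) of 2.80, 1.51, 2.13 and 3.06. The lines overlapped for Pcna on both measures. Its reads were more plentiful than those of the mitotic genes, with a median of 49.5 over the cells that had it. Processed pseudogenes of Tyms, Pcna and Ccnb1 are annotated in GENCODE vM21, and kallisto divides reads that fit several transcripts, so the reads of these 3 genes may be shared with the copies.

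Rrm2, the regulated subunit of ribonucleotide reductase, was read almost entirely in Lgr5+ cells. It was detected in 11 of 29, 10 of 28, 0 of 50 and 2 of 75 kept cells, at 7.19, 34, 0 and 0.016 CPM, and the 2 Lgr6+ cells held 1 read each. The Lgr5+ cells with Rrm2 held a median of 2 reads, and 85.7% of them had fewer than 10. Pooled CPM was 1730 times higher in Lgr5+ cells (95% counting interval 476.5 to 14320, 520 against 2 reads), but 1 cell of Lgr5 mouse 2 held 423 of those reads, 94.2% of that mouse's sum. With Lgr5 mouse 1 alone the ratio was 552 (147.3 to 4646), below that of Top2a. Its partner Rrm1, the catalytic subunit, was detected in 37.9%, 39.3%, 10% and 8%. The Mcm2 to Mcm7 subunits form the replicative helicase. Mcm7 was detected in 55.2%, 46.4%, 14% and 8%, Mcm3 in 31%, 42.9%, 8% and 2.67%, and Mcm6 in 17.2%, 28.6%, 2% and 2.67%. Mcm2 was at 27.6%, 17.9%, 4% and 1.33%, and Mcm4 at 24.1%, 28.6%, 14% and 9.33%. For Mcm6, Mcm7 and Rrm2 each Lgr5 mouse had a larger share than each Lgr6 mouse, an order that 28.2% of all genes had. In Lgr5 mouse 1, 87.6% of the Mcm6 reads came from 1 cell. Mcm5 overlapped, with 44.8%, 35.7%, 20% and 48%.

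Shares and sums did not always point the same way. The share of cells was larger in both Lgr5 mice for Aurka, Cenpe, Mcm2, Mcm3, Mcm4 and Rrm1, but their pooled CPM was higher in Lgr6+ cells, and no order of the lines is read for these 6 genes. For Mcm2 the sums were 5.27, 0.606, 5.54 and 7.05 CPM, and all 879 reads of Lgr6 mouse 2 were from 1 cell. One cell gave 89.3% of the Mcm3 reads of Lgr6 mouse 1, and another gave 87.2% of those of Lgr6 mouse 2.

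Counted per cell, more mitotic and replication genes were detected in the Lgr5+ than in the Lgr6+ cells. A kept cell had on average 5.76, 5.71, 2.54 and 3.73 of the 20 mitotic genes, or 5.74 ± 0.031 for the Lgr5 line and 3.14 ± 0.844 for the Lgr6 line (mean ± SD, n = 2 mice each). The difference, Lgr6 minus Lgr5, was -2.60, and the lines did not overlap, with a two-sided exact permutation p of 0.3333, the smallest that 2 mice against 2 can give. Of the 10 replication genes a cell had 4.07, 3.79, 1.72 and 2.08, or 3.93 ± 0.20 against 1.90 ± 0.255 (exact p = 0.3333). At least 5 mitotic genes were detected in 24 of 29 cells (82.8%, exact 95% interval 64.2 to 94.2), 19 of 28 (67.9%, 47.7 to 84.1), 5 of 50 (10%, 3.33 to 21.8) and 24 of 75 (32%, 21.7 to 43.8). This gave 75.3 ± 10.5% of Lgr5+ and 21 ± 15.6% of Lgr6+ cells (exact p = 0.3333). Such cells are a range of a count and not a class, since 130 of the kept cells (71.4%) had 3 to 7 mitotic genes, 34 of them 4 and 36 of them 5. At 8 or more genes, 5 and 4 cells of the Lgr5 mice remained and 0 of the Lgr6+ cells, which allows a share of up to 6% in Lgr6 mouse 1 and 4% in Lgr6 mouse 2.

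**Figure D2:**
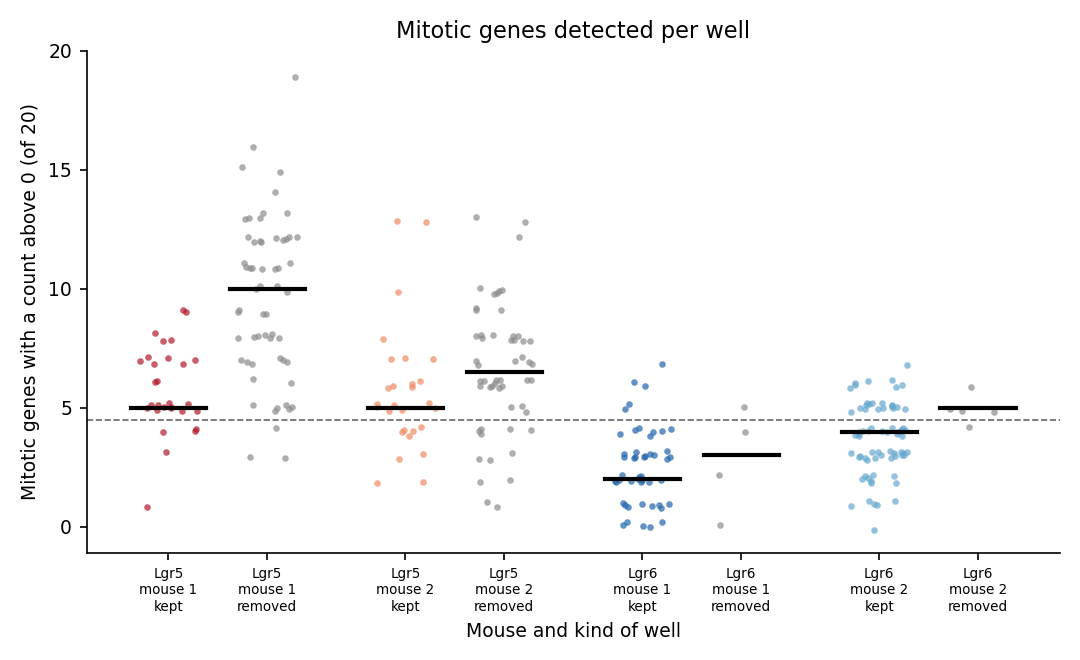
Number of the 20 mitotic genes with a count above 0 in each well (vertical axis), by mouse, for kept cells (coloured) and removed wells with at least 2000 genes (grey). Points are shifted slightly at random in both directions, black bars are medians and the dashed line separates wells with 5 or more genes. Medians of kept cells are 5, 5, 2 and 4, no Lgr6+ cell is above 7, and the highest well, a removed one of Lgr5 mouse 1, has 19.

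The gap between the lines depended on how the genes were counted. When each cell was thinned to 99000 reads, with 1, 3, 13 and 2 shallower cells left out, the mitotic means were 4.39, 3.44, 1.54 and 1.70, and 50%, 28%, 0% and 0% of cells had 5 genes or more. When 10 reads were required in place of 1, the mitotic means were 1.03, 0.75, 0.48 and 1.48, and the difference turned to 0.088 in favour of Lgr6+ cells. Without the 5 common mitotic genes, a cell had 2.86, 2.54, 0.36 and 0.36 of the other 15, and 24.1%, 21.4%, 0% and 0% of cells had 5 or more. The 15 were split off after the values were seen and are rare in Lgr6+ cells, so this count is no independent check of the gap. Read depth moved with the count in Lgr6 mouse 1, where the Spearman correlation over its 50 cells between mitotic genes and total reads was 0.677, against -0.0846 and -0.102 in the Lgr5 mice and 0.118 in Lgr6 mouse 2. Kept cells of the Lgr5 mice also had more genes of any kind, with medians of 4292, 3500, 3007 and 3192 genes. The Spearman correlation of mitotic genes with the number of genes in the cell was 0.448, 0.698, 0.237 and 0.29. The part of the number of genes in the gap was not tested.

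No kept cell had reads of all 3 of Mki67, Top2a and Cdk1. Mki67 was detected in 12 kept cells, Top2a in 27 and Cdk1 in 8. Mki67 and Top2a met in 1 cell, Top2a and Cdk1 in 1 cell, both from Lgr5 mice, and Mki67 and Cdk1 in none. A count of 0 among the kept cells of a mouse allows a share of up to 10.3%, 10.7%, 6% and 4% in the 4 mice. The 9 Lgr6+ cells with Mki67 held 1 to 1801 reads of it, at a log2(TPM + 1) of 0.24 to 7.66. They had 2 to 6 of the 20 mitotic genes, a median of 3, none had Top2a, and 8 of the 9 had the smooth muscle actin gene Acta2. Among all kept cells of Lgr6 mouse 1 and 2, Acta2 was detected in 88% and 90.7%, and Top2a in 0 and 1 cell. Neither trait therefore sets these 9 cells apart from the other Lgr6+ cells. The 3 Lgr5+ cells with Mki67 had 4 to 29 reads of it and 5 to 8 mitotic genes. Conversely, of the 9 kept cells with 8 or more mitotic genes, all Lgr5+, 7 had Top2a, 1 had Mki67 and 0 had Cdk1.

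Few cells held many of these genes at a high level. At a log2(TPM + 1) above 5, the most of the 30 mitotic and replication genes in any 1 kept cell was 8, 5, 5 and 4 in the 4 mice, and 9, 5, 4 and 5 cells had 3 or more. The leading cell, of Lgr5 mouse 1, had Tyms at 7.63, Ube2c at 7.71, Rrm2 at 7.03, Top2a at 6.09, Tpx2 at 5.62, Ccnb1 at 5.40, Rrm1 at 5.35 and Cdc20 at 5.28. Its reads were 92 for Tyms, 42 for Top2a, 31 for Rrm2 and 12 for Ccnb1, with no Mki67 level above 0. The next, also of Lgr5 mouse 1, had 7 such genes, led by Pcna at 10.06 with 52 reads, and 4 to 11 reads for each of the other 6. Both cells had Cdkn1a, at a log2(TPM + 1) of 4.14 and 9.38.

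Among the cyclins of G1 and the inhibitors, Cdkn1a, Ccnd2 and Cdkn1b were common and the other 4 were scarce, and Ccnd2 ran opposite to Top2a. Ccnd2, a D-type cyclin at chr6:127125162-127152193, was detected in 13.8%, 17.9%, 56% and 46.7% of kept cells, with a mean log2(TPM + 1) of 0.77, 0.50, 3.44 and 2.31. Both Lgr6 mice were above both Lgr5 mice. Where present it had a median of 65 reads, and 26.4% of the positive cells had fewer than 10 reads. Its relative Ccnd1 was detected in 13.8%, 21.4%, 12% and 8%, at a mean log2(TPM + 1) of 0.48, 0.82, 0.64 and 0.34, and these levels overlapped. Within a mouse, Ccnd2 and Acta2 had Spearman correlations of 0.42, -0.22, 0.56 and 0.30 over 29, 28, 50 and 75 cells, which share libraries and depth within a cell. Ccne1, an E-type cyclin that starts S phase, was read in 1 cell of each Lgr6 mouse (2% and 1.33%), with 318 and 140 reads. It was read in no Lgr5+ cell, but a count of 0 there allows a share of up to 10.3% in Lgr5 mouse 1 and 10.7% in Lgr5 mouse 2. The shares therefore do not show a difference between the lines. Pooled CPM in Lgr5+ cells was at most 0.05381 times that in Lgr6+ cells, by the upper limit of the counting interval. That value rests on 1 cell per Lgr6 mouse. Ccne2 was detected in 1, 0, 3 and 4 cells.

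Cdkn1a, the gene of the p53-induced inhibitor p21 at chr17:29090976-29100727, had the highest level of the 37 genes. It was detected in 69%, 89.3%, 66% and 64% of kept cells, with a mean log2(TPM + 1) of 5.80, 7.57, 5.42 and 5.59 and a median of 161.5 reads where present. Lgr5 mouse 2 stood above the other 3 mice, which lay close together. Within each mouse Cdkn1a went with Btg2, another p53-induced inhibitor of G1 progression, at Spearman correlations of 0.39, 0.42, 0.47 and 0.40 over its cells. With Mdm2, also a p53 target, the correlations were -0.0648, 0.158, -0.0841 and -0.187, and with the immediate early gene Fos 0.394, 0.237, 0.451 and 0.30. Cdkn1b, encoding p27, was detected in 34.5%, 25%, 46% and 54.7%, with a mean log2(TPM + 1) of 0.92, 1.03, 2.15 and 1.56, higher in both Lgr6 mice. Cdkn1c, the imprinted gene of p57, was detected in 0, 2, 8 and 7 cells, or 0%, 7.14%, 16% and 9.33%, and again both Lgr6 mice were above both Lgr5 mice. Cells with 5 or more mitotic genes had mean Cdkn1a levels of 5.40, 7.70, 8.76 and 6.06 on the log2(TPM + 1) scale, against 7.73, 7.28, 5.04 and 5.37 in the cells with fewer. In this split only Lgr5 mouse 1, with 24 and 5 cells, had the lower mean in cells with more mitotic genes. Over all its cells, the Spearman correlation of Cdkn1a with the number of mitotic genes was -0.145, -0.42, 0.0238 and 0.195, negative in both Lgr5 mice.

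**Figure D3:**
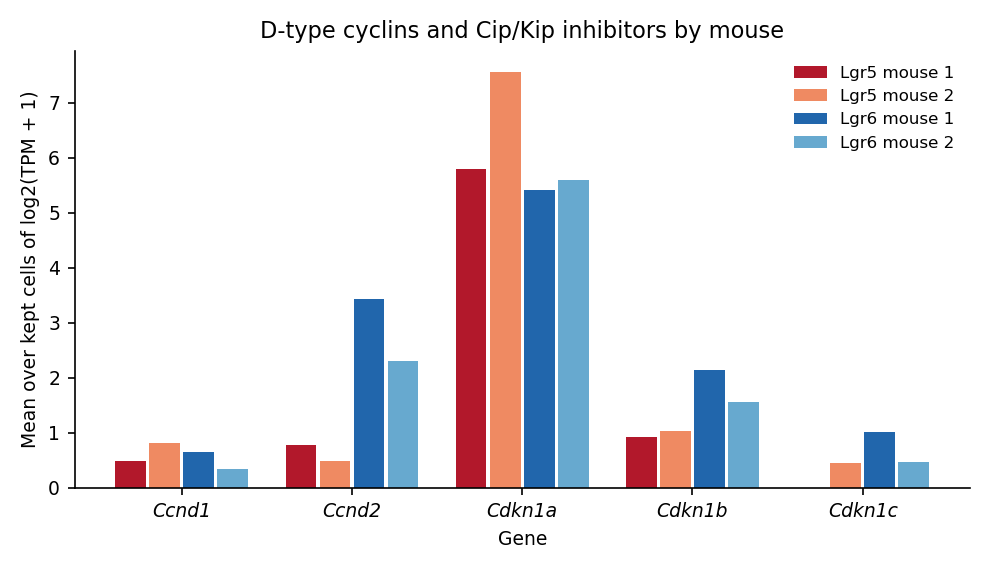
Mean log2(TPM + 1) over kept cells (vertical axis, from 0) of the D-type cyclins and Cip/Kip inhibitors (horizontal axis), with 1 bar per mouse over 29, 28, 50 and 75 cells and no error bar. Ccnd2, Cdkn1b and Cdkn1c are higher in both Lgr6 mice, and Cdkn1a, at 5.42 to 7.57, exceeds the other 4 genes in every mouse.

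Tested on counts summed per mouse, none of these differences passed. The quasi-likelihood test of edgeR, adjusted over all genes by Benjamini-Hochberg, gave 0 of 14086 genes (0%) an adjusted p under 0.05 between the lines, and 0 of the 32 listed genes tested. Aurkb, Bub1b, Kif23, Cenpe and Nusap1 were filtered as too low. At an unadjusted p under 0.05 there were 1312 genes (9.31%) and 5 of the listed genes, 4 lower in Lgr6+ cells (Ccnb1, Plk1, Rrm2 and Top2a) where 4.06% of all tested genes were lower, and Ccne1 higher where 5.25% were higher. On simulated sums of this design edgeR recovered 1% of genes changed by 3 on the log2 scale and 28% of those changed by 6. DESeq2 on the same sums called 567 genes (4.03%), among them Ccnb1, Rrm2 and Top2a as lower and Ccne1 as higher in Lgr6+ cells. In the simulation DESeq2 recovered 16% and 72% of these genes, but 64.9% of its calls were genes that had not been changed, against 3.33% of the calls of edgeR. The simulated counts were drawn from the means and dispersions that edgeR had fitted, which may favour edgeR. The changed genes were picked at random and not for low counts, so these rates may not hold for the 4 listed genes.

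In the edgeR fit, Top2a differed by -9.54 (Lgr6 minus Lgr5, log2, SE 2.23, adjusted p = 0.327) and Rrm2 by -10.50 (SE 2.20, adjusted p = 0.327). These fitted values depend on edgeR's prior count, because the Lgr6 sums held 2 reads. For Ccnb1 the difference was -7.66 (SE 2.62, adjusted p = 0.402) and for Plk1 -6.57 (SE 2.08, adjusted p = 0.382). Ccnd2 had 1.71 (SE 0.78, adjusted p = 0.587), Cdkn1b 1.73 (SE 1.30, adjusted p = 0.759) and Cdkn1a -0.50 (SE 0.47, adjusted p = 0.809). A single mouse moved the values of Ccnd2, to 3.04 without Lgr5 mouse 1 and 0.94 without Lgr5 mouse 2, and of Cdkn1b, to 1.08 and 2.92. The median over the 32 listed genes was -0.83 and over all tested genes 0.05. Without a test, 21 of the 37 genes (12 of the 20 mitotic and 7 of the 10 replication genes) had a larger share of cells in both Lgr5 mice than in both Lgr6 mice, where 28.2% of 19667 genes did, and 5 of 37 the reverse, where 12.7% did. The 21 include the 6 genes whose pooled CPM was higher in Lgr6+ cells. By mean log2(TPM + 1) the counts were 23 (26.6% of all genes) and 6 (15.8%).

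The 4 genes lower in Lgr6+ cells at an unadjusted p under 0.05 are shown with up to 250 bases upstream of their RefSeq transcription start, because the same short boxes recur in promoters of cell cycle genes. Capitals mark matches on either strand to CCAAT, the box bound by NF-Y, and to TTTGAA or TTCGAA, core letters of the element bound by the DREAM repressor complex of resting cells. The windows are Top2a at chr11:99024190-99024439 on the minus strand, Plk1 at chr7:122159185-122159434 on the plus strand, Ccnb1 at chr13:100786571-100786736 on the minus strand and Rrm2 at chr12:24708004-24708240 on the plus strand (build GRCm38.p6). Bases that GENCODE assigns to the transcribed gene were left out. The genes themselves span chr11:98992943-99024189, chr7:122159439-122169873, chr13:100778650-100786570 and chr12:24708241-24714146 in the same order (GENCODE vM21, GRCm38).
Top2a: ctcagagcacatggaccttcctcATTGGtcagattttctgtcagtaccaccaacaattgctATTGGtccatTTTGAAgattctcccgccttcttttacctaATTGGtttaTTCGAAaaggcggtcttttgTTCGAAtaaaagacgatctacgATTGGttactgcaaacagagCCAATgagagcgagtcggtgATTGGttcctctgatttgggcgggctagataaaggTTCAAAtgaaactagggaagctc
Plk1: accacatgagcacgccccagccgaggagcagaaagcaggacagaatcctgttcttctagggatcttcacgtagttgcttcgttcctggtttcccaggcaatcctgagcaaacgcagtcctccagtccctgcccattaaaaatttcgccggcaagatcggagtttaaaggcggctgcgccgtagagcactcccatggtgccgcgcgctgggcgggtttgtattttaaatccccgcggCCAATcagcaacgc
Ccnb1: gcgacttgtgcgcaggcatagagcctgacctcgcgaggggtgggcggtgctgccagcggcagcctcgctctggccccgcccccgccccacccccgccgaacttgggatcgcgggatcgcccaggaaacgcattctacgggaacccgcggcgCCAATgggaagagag
Rrm2: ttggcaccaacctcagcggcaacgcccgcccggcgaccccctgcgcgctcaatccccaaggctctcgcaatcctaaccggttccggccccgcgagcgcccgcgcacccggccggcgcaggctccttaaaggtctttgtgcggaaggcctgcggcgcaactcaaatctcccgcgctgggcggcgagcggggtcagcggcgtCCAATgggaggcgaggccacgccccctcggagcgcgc
Top2a held 6 matches to CCAAT, 2 to TTTGAA and 2 to TTCGAA, and each of the other 3 windows held 1 match to CCAAT. RefSeq windows of 250 bases were found for 29 of the 37 genes. CCAAT stood in 24 of the 29 (82.8%) and in 33.8% of 32817 windows of all genes. A listed gene counted when any of its windows had the match, whereas the values for all genes are shares of single windows, which can favour the listed genes. TTTGAA stood in 8 (27.6%, all genes 16%) and TTCGAA in Bub1b, Mcm7 and Top2a (all genes 1.33%). The E2F-type letters TTTCCCGC were found for Mcm7 alone (all genes 0.893%) and TTTGGCGC for Mcm5 and Mcm6 (all genes 0.417%). Genes detected in both lines, such as Kif11, Ube2c and Pcna, also had CCAAT.

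In kept Lgr5+ cells more mitotic genes were detected at higher levels of an embryonic globin. Hbb-bh1, a β-like globin of the yolk sac, was detected in 55 of 57 kept Lgr5+ cells at a median log2(TPM + 1) of 11.05, and in 1 kept Lgr6+ cell. Within the Lgr5 mice, the number of the 20 mitotic genes correlated with the Hbb-bh1 level at Spearman's rho of 0.387 over 29 cells and 0.462 over 28 cells, less than with the number of genes in the cell (0.448 and 0.698). For the 15 rarer mitotic genes, the subset split off after the values were seen, rho was 0.616 and 0.698 with Hbb-bh1, 0.42 and 0.415 with the number of genes and -0.389 and -0.356 with the reads of the cell. In removed wells, described below, rho with Hbb-bh1 was 0.176 and 0.138 for the 20 genes and 0.286 and 0.494 for the 15. The 9 kept cells with 8 or more mitotic genes had Hbb-bh1 at 8.23 to 13.06. The 9 erythroid markers summed to a median of 2199, 2298, 0 and 0 TPM and ranged from 32.1 to 6915 and 0 to 8674 TPM in the Lgr5 mice. Of these, Gata1 was detected in 41.4%, 35.7%, 0% and 0% of kept cells, and the defining gene Klf1 was at 0 in all 4 mice. Ter119+ red blood cells were depleted in the sort. The 15 genes had 180 and 86.5 reads per 1000 reads of Hbb-bh1 in the kept cells of the Lgr5 mice, and 112.8 to 3652 in the groups of removed wells. The 7 epithelial markers also differed between the lines, with median sums of 180.5, 99.1, 2.39 and 1.98 TPM in kept cells. The part of these transcripts in the difference between the lines was not tested.

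**Figure D4:**
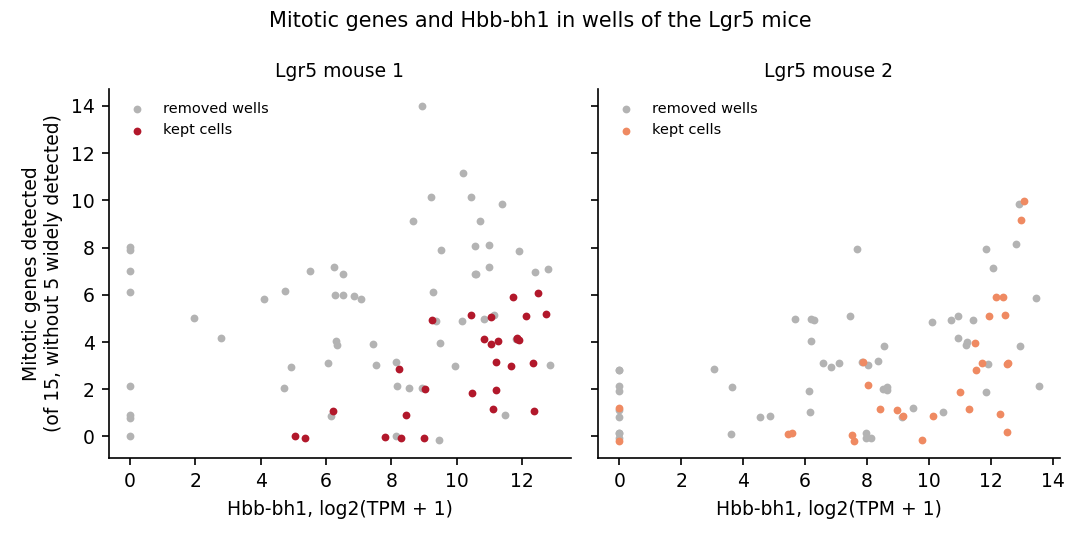
Number of the 15 rarer mitotic genes with a count above 0 (vertical axis, points shifted slightly at random) against the Hbb-bh1 level in log2(TPM + 1) (horizontal axis) for each well of Lgr5 mouse 1 (left) and Lgr5 mouse 2 (right), with kept cells coloured and removed wells grey. In kept cells the number is higher at higher Hbb-bh1 (rho 0.616 and 0.698), and removed wells at a level of 0 include some with 6 to 8 genes in Lgr5 mouse 1.

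Other cell cycle genes showed the same mixture of widely and rarely detected members. Of 20 further mitotic genes a kept cell had 4.17, 4.21, 2.28 and 2.96, of 16 further replication genes 2.86, 2.32, 1.32 and 1.48, and of 18 further G1 regulators 5.90, 5.5, 4.48 and 4.92. By edgeR, 0 of the 10, 11 and 17 tested were called between the lines, with Mybl2, Cdt1, Cdkn2b and Rbl1 at an unadjusted p under 0.05. DESeq2 called the mitotic activator Mybl2, the inhibitor Cdkn2b and the pocket protein gene Rbl1, each lower in Lgr6+ cells. Hmmr, a spindle and hyaluronan-binding protein, was detected in 86.2%, 75%, 72% and 96% of cells, and the kinetochore gene Nuf2 in 96.6%, 85.7%, 58% and 82.7%. As with Birc5, both were detected in most cells of Lgr6 mouse 1, where Top2a was at 0. Prc1, a midzone spindle protein, was detected in 58.6%, 46.4%, 44% and 49.3%. E2f1, the transcription factor of S-phase entry, was detected in 51.7%, 46.4%, 48% and 52%, the uracil glycosylase Ung in 44.8%, 28.6%, 16% and 25.3%, and the primase subunit Prim1 in 31%, 42.9%, 4% and 9.33%. For Ung and Prim1 the shares in both Lgr5 mice were above those in both Lgr6 mice, while their normalised summed counts overlapped between the lines. Btg2 had the highest level among the named G1 regulators, with a mean log2(TPM + 1) of 8.42, 7.16, 6.90 and 7.62. Its relative Btg1 had 4.14, 3.84, 2.45 and 2.77, and Mdm2, the antagonist of p53, had 3.18, 1.49, 2.15 and 1.72.

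The wells that the authors removed had a larger mean number of cell cycle genes than the kept cells in each of the 4 mice. Removed wells had on average 9.59, 6.65, 2.75 and 5 mitotic genes and 6.32, 4.5, 2.5 and 3 replication genes. At least 5 mitotic genes were detected in 94.9%, 77.8%, 25% and 80% of them, which exceeded the kept cells by 12.2, 9.92, 15 and 48 points (mean 21.3, higher in 4 of 4 mice). The two-sided exact sign-flip p was 0.125, the smallest that 4 mice can give. Only 4 and 5 wells of the Lgr6 mice were of this kind. The number of genes moved with these counts in the Lgr5 mice, with medians of 9140 and 6280.5 genes in removed wells against 4292 and 3500 in kept cells. When each well was thinned to 99000 reads, the excess was 20.2, 32.5, 0 and 0 points (exact sign-flip p = 0.5). Shallower wells were left out of this, 2, 16, 1 and 0 of the removed wells and 1, 3, 13 and 2 of the kept cells, so the sets of wells differ. With a TPM above 1 required it was 19.4, 14.7, -4 and -2.67 points (mean 6.84), lower in both Lgr6 mice, and for at least 3 mitotic genes it was 3.45, -0.265, 2 and 18.7 points (mean 5.96).

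Mki67 was detected in a larger share of removed wells than of kept cells in both Lgr5 mice, and Top2a in one of them. The marker Mki67 was read in 28 of 59 and 15 of 54 removed wells, a difference of 44 and 20.6 points. Top2a was read in 55.9% and 27.8%, a difference of 4.21 and -11.5 points. Of the removed wells, 44 had Mki67, 25 had Mki67 with Top2a and 3 had both with Cdk1, against 12, 1 and 0 kept cells. Ccnd2 was higher by 59.1 and 50.7 points in removed wells of the Lgr5 mice and Pcna by 35 and 45.2 points. In both Lgr5 mice 24 of the 37 genes (64.9%) were detected in a larger share of removed wells, where 76.6% of 22785 genes were, so the listed genes were below the share of all genes.

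The markers for which wells were removed went with the counts. In the Lgr5 mice, 54 removed wells had both the immune gene Ptprc and the endothelial gene Pecam1 at a TPM of at least 1, and 38 of them (70.4%) had 8 or more mitotic genes and 27 (50%) had Mki67. The mice differed, with 8 or more mitotic genes in 29 of 31 wells of Lgr5 mouse 1 and 9 of 23 of Lgr5 mouse 2, and Mki67 in 19 and 8. The 54 wells had a median of 9903.5 genes per well. Of 18 wells with Ptprc alone, 10 had 8 or more mitotic genes and 6 had Mki67, and of 28 with Pecam1 alone, 11 and 7. By mouse, 8 or more mitotic genes were in 7 of 9 and 3 of 9 wells with Ptprc alone, and in 4 of 10 and 7 of 18 with Pecam1 alone. Mki67 was in 5 and 1, and in 3 and 4 of these wells. Among 13 removed wells with neither, 4 had 8 or more mitotic genes (30.8%) and 3 had Mki67 (23.1%), against 9 (15.8%) and 3 (5.26%) of the 57 kept cells, with medians of 3778 and 3817 genes. By mouse, 2 of 9 and 2 of 4 of these removed wells had 8 or more mitotic genes, against 5 of 29 and 4 of 28 kept cells. Mki67 was in 1 and 2 of these removed wells and in 1 and 2 kept cells. With the wells without either marker alone, the share with at least 5 mitotic genes differed from that of kept cells by -4.98, 7.14, 23.3 and 34.7 points in the 4 mice. The 7 immune markers summed to medians of 1751 and 937 TPM in removed wells of the Lgr5 mice and 5.34 and 0 TPM in kept cells. The 7 epithelial markers summed to medians of 4125 and 4988 TPM in those removed wells. The part of other cell types in the difference was not tested, and no doublet caller was run.

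**Figure D5:**
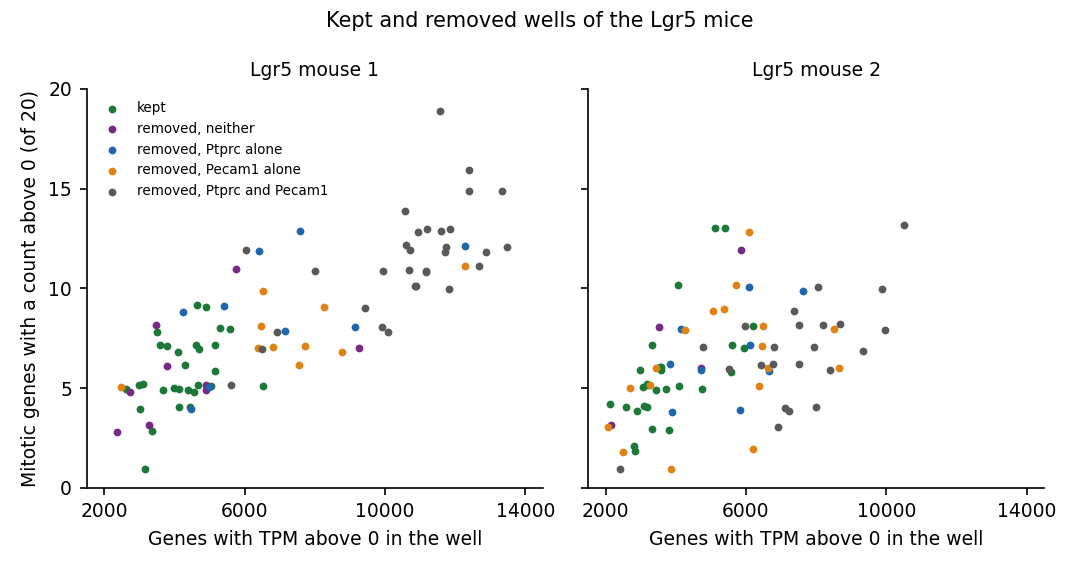
Mitotic genes with a count above 0, of 20 (vertical axis, points shifted slightly at random), against the number of genes with TPM above 0 (horizontal axis) for each well of Lgr5 mouse 1 (left) and Lgr5 mouse 2 (right), coloured by kept cells and by Ptprc and Pecam1 in removed wells. Wells with both markers reach the highest gene numbers, and the well with 19 mitotic genes is one of them.

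With sums of each mouse blocked by animal, edgeR called 0 of 17025 genes (0%) between removed and kept wells, with 590 (3.47%) at an unadjusted p under 0.05. Of the listed genes, all 37 were tested, 0 were called and 0 had an unadjusted p under 0.05. Their median difference was -0.30 on the log2 scale and that of all genes -0.27. DESeq2 called 502 genes (2.95%), none of them listed, with Bub1b and Ccnb2 at an unadjusted p under 0.05. In edgeR these 2 genes differed by 3.01 (SE 2.59, adjusted p = 1) and 2.96 (SE 2.31, adjusted p = 1). Of the further lists, 0 genes were called by edgeR and DESeq2 called the cytokinesis gene Anln as lower in removed wells.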

How the data were processed

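Poly(A) RNA of sorted single cells was amplified by SmartSeq2 and sequenced as 38 bp paired reads on a NextSeq. Per the submitters' processing notes and the methods, reads were demultiplexed with bcl2fastq 2.17.1.14 and pseudo-aligned with kallisto 0.43.0 to mm10 transcripts. The authors deposited whole-number gene counts, obtained by adding up transcript counts, for each of the 384 wells. On a log2(TPM + 1) scale, expression was deposited both before and after the authors' filter, which asked for at least 2000 genes, housekeeping expression, no gene-number outlier, R26-Tom expression, and Ptprc and Pecam1 below 1 TPM. Counts that the authors scaled to a common depth were not used here. Of 1528 member values with a count above 0 in kept cells, 148 were listed at 0 TPM (median 1 read), and 5 the reverse. Precision followed depth (9748 to 4538878 counts per kept cell).

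Sums of counts for each mouse, or each mouse and status (kept; removed with at least 2000 genes), were tested with edgeR 4.0.16 (TMM, filterByExpr, quasi-likelihood) in R 4.3.3, with the mouse as a block between statuses. Deviations of a mouse's 2 sums correlated at 0.0439 to 0.0913, and the pairing rests on the shared animal. Alternatives used DESeq2 1.42.0, limma 3.58.1 on log2 of mean TPM (pseudocounts 1 and 0.1), other normalization, filters, detection rules and wells, and each mouse left out. Per-mouse means and shares were compared by exact permutation in Python 3.11.15 with scipy 1.17.1, numpy 2.4.6 and pandas 2.3.3. Figures used matplotlib 3.10.9. The tests were tested on simulated data with 200 changed genes. Shares have exact Clopper-Pearson 95% intervals, and folds against 0 are given as the limit of the 95% counting interval. All 37 members are named, and of 3 further lists the 3 most widely detected genes. The members and lists were chosen with earlier results of these data known. Whether samples of a line came from separate litters is not given in the sources used here.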

Additional observations from a re-analysis of the deposited data

Results flagged for a closer look

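For 4 of the listed genes, the share of wells moved up from kept to removed wells in both Lgr5 mice and down in both Lgr6 mice. These are 10.8% of the 37 genes, where 12% of 22888 genes showed the same, so the listed genes do not stand out. The difference between the lines was not tested, and the Lgr6 mice had only 4 and 5 removed wells. In the order Lgr5 mouse 1, Lgr5 mouse 2, Lgr6 mouse 1 and Lgr6 mouse 2, the change in percent of wells, removed minus kept, was 29.5, 8.2, -17 and -12 points for the spindle factor Tpx2. For the helicase subunit Mcm6 it was 37, 10.3, -2 and -2.67 points, where 1 and 2 kept cells of the Lgr6 mice had the gene and 0 of the removed wells. Ccne1, the E-type cyclin, changed by 8.48, 3.70, -2 and -1.33 points, where 1 kept cell of each Lgr6 mouse and 0 of the removed wells had the gene. Ccnd1, the D-type cyclin, changed by 47.2, 21.2, -12 and -8 points.

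The pool wells, 1 for each mouse, entered no comparison and had no control beside them. Of the 37 listed genes, 9, 6, 2 and 5 were above 3 reads, the limit that a count of 0 allows, in the pools of Lgr5 mouse 1, Lgr5 mouse 2, Lgr6 mouse 1 and Lgr6 mouse 2. These pools had 353310, 204948, 66586 and 2203576 counts. Ccnd2 had 96, 0, 58 and 1032 reads, Cdkn1a 1, 140, 8 and 0, Birc5 12, 5, 0 and 7, and Tyms 38, 9, 2 and 8. The kinases Aurka and Aurkb had 11 and 9 reads in the pool of Lgr5 mouse 2, while Mki67, Top2a and Cdk1 had 0 reads in all 4 pools.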

How the results depend on the processing

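Between the lines, edgeR called 0 genes, DESeq2 called 567, and edgeR without a filter on low counts called 408 of 19715. Leaving out 1 mouse gave 0 to 34 (34 without Lgr6 mouse 1, 7 without Lgr6 mouse 2). Of the listed genes, DESeq2 called 4 and edgeR without the filter called 1 (Rrm2, -10.48, adjusted p = 0.0046), against 0 when each mouse was left out. By DESeq2 the adjusted p was 2.1e-05 for Top2a (-9.86), 3.3e-07 for Rrm2 (-10.83) and 0.018 for Ccnb1 (-7.83). The difference in mitotic genes per cell reversed to 0.088 when 10 reads were required, and Cdkn1a reversed to 0.0212 with either pseudocount by limma on mean TPM (adjusted p = 0.976 and 0.975). Between removed and kept wells, edgeR called 0 genes, DESeq2 502, edgeR with library size in place of TMM 4, without a filter 68, with removed wells free of Ptprc and Pecam1 (chosen after seeing the data) 23, and 0 to 16 with a mouse left out (16 without Lgr5 mouse 2, 6 without Lgr5 mouse 1, 1 without Lgr6 mouse 2). The cause of these changes was not tested. With a mouse left out, the other differences, Lgr6 minus Lgr5, ranged from -3.20 to -2.0 mitotic genes, -2.21 to -1.85 replication genes and -65.3 to -43.3 points of cells with at least 5 mitotic genes, and the excess in removed wells from 12.4 to 25.1 points. With the mouse number as a replicate block between the lines, edgeR called 0 genes, and without the replicate block between statuses 0 of 13503. The correlation of deviations of same-numbered mice was 0.0392, and the numbers name different animals. With 2 mice per line and few reads per gene, changes under the sizes simulated were rarely detectable.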
